A study of Mus musculus with 8 samples.

Results

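The glyoxylate and oxalate pathway was followed here through 8 genes, Agxt, Hao1, Grhpr, Ldha, Prodh2, Hoga1, Agxt2 and Slc26a1, in livers of mice given human AGXT or GFP. The genes were the rows of the count tables whose Ensembl identifiers carry these symbols in the mouse GRCm38 annotation. They were 8 of the 52636 genes in each table, and all 8 were among the 15248 genes with enough counts to be tested. The animals were 8 male C57BL/6J mice without an engineered allele. At 7 weeks of age, 4 of them received AAV8-TBG-GFP (AAV8-GFP) and 4 received AAV8-TBG-AGXT (AAV8-AGXT) by intraperitoneal injection. AAV8 is an adeno-associated virus with a preference for the liver, and the TBG promoter limits expression to hepatocytes. From 8 weeks of age every mouse, controls included, ate the MASH diet, rich in fat, fructose and cholesterol and called a NASH diet in the labels, for 24 weeks. None of these mice was on a chow diet and none went without virus. Each mouse gave 1 stranded mRNA library of bulk liver, and each is called by its animal number. Mice 303, 311, 314 and 315 had received AAV8-GFP, and 308, 309, 316 and 319 had received AAV8-AGXT.

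Glyoxylate is a reactive intermediate made in the liver from glycolate and from hydroxyproline, and it is the immediate precursor of oxalate, an end product that mammals excrete by the kidney. Aminotransferases turn glyoxylate into glycine and a reductase returns it to glycolate, whereas lactate dehydrogenase oxidizes what remains to oxalate. Loss of AGXT, GRHPR or HOGA1 causes the primary hyperoxalurias of humans, in which the liver overproduces oxalate. The comparison of AAV8-AGXT with AAV8-GFP asks how the hepatic transcripts of this pathway stood when its main detoxifying enzyme was supplied in excess during steatohepatitis.

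The libraries held from 17095433 to 28780140 pairs counted on genes. The 8 genes had between 1591 pairs (Slc26a1, mouse 303) and 57877 pairs (Ldha, mouse 319). The table has no row for human AGXT, and read pairs from the transgene that align to the mouse gene cannot be told apart from mouse Agxt transcripts. Read pairs not aligned anywhere made up 3.80%, 2.61%, 1.32% and 2.78% of all tallied pairs in AAV8-GFP mice 303, 311, 314 and 315. In AAV8-AGXT mice 308, 309, 316 and 319 they made up 6.05%, 3.78%, 4.55% and 4.14%. The difference of 2.0 percentage points did not pass a two-sided exact permutation test (p = 0.0571), and it was 2.65 points (p = 0.0286, the smallest this test can give with 4 mice per group) when pairs aligned at several places were left out of the total. Other shares differed too, in AAV8-GFP and AAV8-AGXT means. Pairs of low alignment quality made up 0.98% and 1.49%, and pairs aligned at several places 19.5% and 21.7%. Pairs counted on genes made up 65.6% and 61.5%, ambiguous pairs 5.88% and 5.39%, and pairs on no feature 5.40% and 5.31%. None of these passed the same test, and what caused the differences was not tested.

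Among the AAV8-AGXT mice, though not the AAV8-GFP mice, the levels of Agxt and Grhpr ran side by side. Ldha did not follow them in every mouse. Promoter sequences are therefore shown for the 2 genes that passed the test and for Ldha, the enzyme of the oxalate-forming step. They come from RefSeq on GRCm38.p6, run 5′ to 3′ on the strand of the gene, and cover 250 bases before the start site and 50 bases from it. All 8 genes matched this table, with 11 start sites in all. Capitals mark matches on either strand to CACGTG (an E-box, the site of MYC and related factors) or to ACGTG (the core of the HIF-1 site, which lies within the E-box). Both were chosen after the sequences had been seen, and a match is a description of letters, not evidence of binding.
Agxt, chr1:93134990-93135289, plus strand: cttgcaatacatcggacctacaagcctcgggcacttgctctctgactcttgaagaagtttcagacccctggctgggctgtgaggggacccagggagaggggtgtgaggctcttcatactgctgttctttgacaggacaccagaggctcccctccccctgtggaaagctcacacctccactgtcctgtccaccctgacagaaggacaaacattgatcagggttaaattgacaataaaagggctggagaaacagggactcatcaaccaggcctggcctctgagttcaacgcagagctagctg
Grhpr, chr4:44981144-44981443, plus strand: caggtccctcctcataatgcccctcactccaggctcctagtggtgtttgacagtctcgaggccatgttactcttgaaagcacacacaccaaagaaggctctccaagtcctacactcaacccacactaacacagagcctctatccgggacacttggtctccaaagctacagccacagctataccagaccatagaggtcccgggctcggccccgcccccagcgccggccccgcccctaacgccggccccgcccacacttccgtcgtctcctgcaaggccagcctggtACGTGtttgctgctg
Ldha, chr7:46845554-46845853, plus strand: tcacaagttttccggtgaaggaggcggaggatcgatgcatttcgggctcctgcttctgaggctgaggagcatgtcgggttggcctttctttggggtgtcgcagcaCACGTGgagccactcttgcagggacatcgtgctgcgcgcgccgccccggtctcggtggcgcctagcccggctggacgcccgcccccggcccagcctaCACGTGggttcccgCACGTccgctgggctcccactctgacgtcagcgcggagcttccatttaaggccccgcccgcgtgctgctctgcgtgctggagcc

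The Ldha sequence held 2 E-boxes, with first bases at -145 and -48, and a further ACGTG on the opposite strand at -34. Grhpr held 1 ACGTG, at position 36 after the start, and Agxt held neither motif. Of 32851 mouse promoter windows of this length, 7.15% held CACGTG and 19.6% held ACGTG. Of the 11 windows of the 8 genes 2 and 4 did. AGGTCA, a half-site of nuclear receptors, was found in 4 of the 11 windows (3 of the 8 genes), beside 16.3% of all windows. It was absent at Agxt, Grhpr and this Ldha start. The HNF1 motif, searched as GTTAATNAT, was found at Prodh2 and Hoga1 and in 0.801% of all windows. The HNF4 motif CAAAGTCCA was found at Agxt2 and in 0.475% of all windows. TATAAA, the letters of the TATA box, matched in 3 of the 11 windows (2 of the 8 genes), beside 13.6% of all windows. These matches lay on the opposite strand only, at -77 and -123 from the start sites of Agxt2 and at -240 for Slc26a1. The observed-over-expected ratio of CpG was 0.136 at Agxt, 0.565 at Grhpr and 0.882 at this Ldha start, against a median of 0.384 over all windows, so that the 3 promoters shown ranged from CpG-poor to CpG-rich. The window of a second Ldha start site, chr7:46846832-46847131, had a ratio of 0.540 and held neither CACGTG nor ACGTG.

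Agxt encodes alanine-glyoxylate aminotransferase, the pyridoxal phosphate enzyme that converts glyoxylate to glycine. The gene (ENSMUSG00000026272) lies at chr1:93135240-93145421 on the plus strand, and no other annotated exon overlaps its exons. Levels are given as CPM, the counts of a gene scaled to a fixed library total, after TMM normalization. Agxt was at 148, 179.9, 153 and 175 CPM in AAV8-GFP mice 303, 311, 314 and 315. In AAV8-AGXT mice 308, 309, 316 and 319 it was at 405, 201, 243 and 371 CPM. Every AAV8-AGXT mouse lay above every AAV8-GFP mouse, with 308 and 319 well above the other two. The group means of 164 ± 15.8 and 305 ± 98.3 CPM (SD, n = 4 each) stood 0.90 apart as a log2 fold change (SE 0.22, 95% interval 0.42 to 1.38, edgeR adjusted p = 0.0489). A two-sided exact permutation test of the 8 CPM values gave p = 0.0286. The call lay close to the threshold and was lost when any mouse but 309 was left out: the adjusted p was 0.0316 without 309, but 0.0984 without 303, 0.146 without 311, 0.122 without 314, 0.0636 without 315, 0.0954 without 308, 0.0532 without 316 and 0.116 without 319. The difference is one of the reads assigned to this row, and how many of them came from the transgene was not tested.

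Grhpr, the glyoxylate and hydroxypyruvate reductase that returns glyoxylate to glycolate, rose as well, and it has no counterpart on the vector. The gene (ENSMUSG00000035637) lies at chr4:44981395-44990734 on the plus strand. The AAV8-GFP mice were tightly grouped, at 199, 198, 204 and 208 CPM in the order given above. The AAV8-AGXT mice were at 444, 257, 279 and 419.6 CPM, again with 308 and 319 highest and without overlap between the groups. The means, 202 ± 4.80 and 349.9 ± 95.5 CPM (SD, n = 4 each), corresponded to a log2 fold change of 0.79 (SE 0.18, 95% interval 0.38 to 1.20, edgeR adjusted p = 0.0456, exact permutation p = 0.0286). The coefficient of variation was 2.37% among AAV8-GFP mice and 27.3% among AAV8-AGXT mice. The call held without 309 (adjusted p = 0.0350) or 316 (0.0467), and was lost without 303 (0.0882), 311 (0.151), 314 (0.110), 315 (0.0623), 308 (0.0891) or 319 (0.109).

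**Figure D1:**
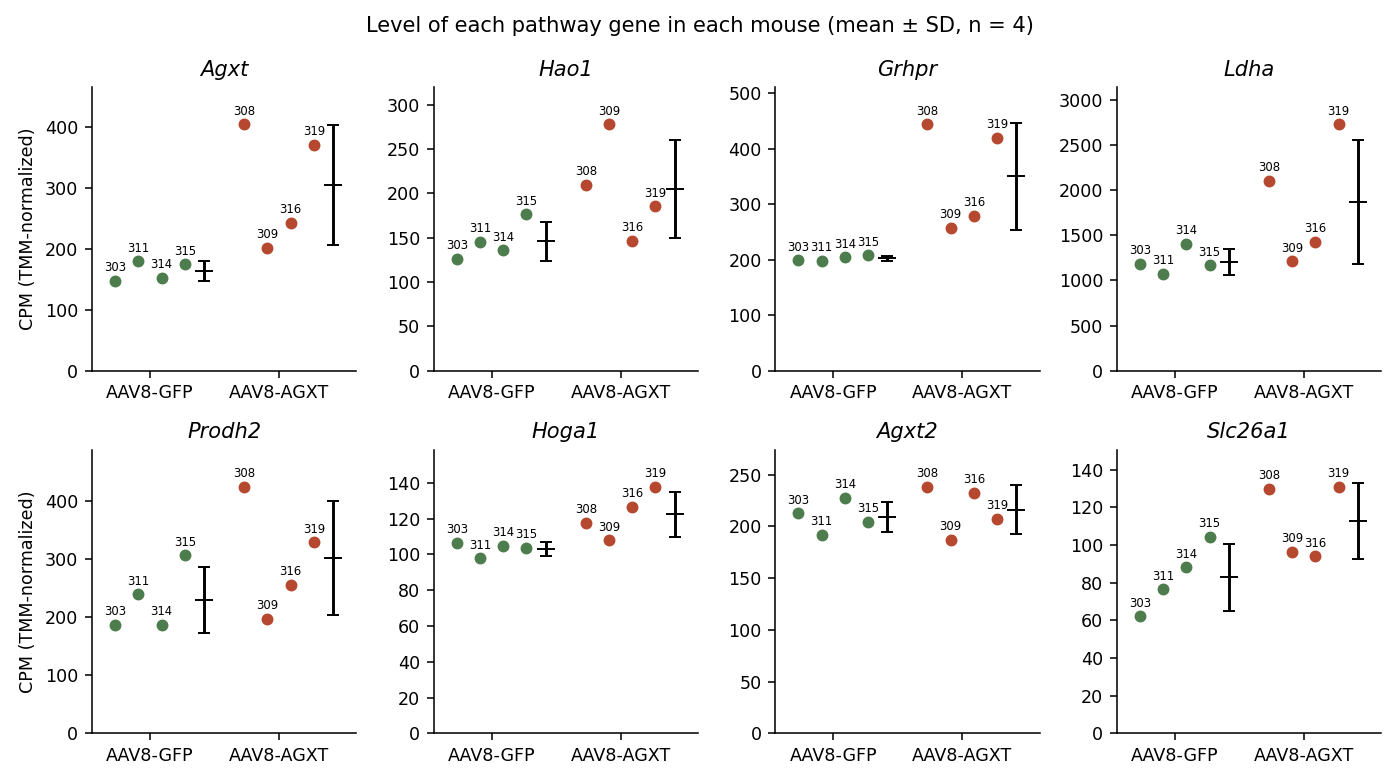
TMM-normalized CPM (y axis, from 0, a scale for each gene) of the 8 pathway genes in each mouse, labelled by animal number, with the mean and SD of each group (n = 4) in black. On this scale Agxt, Grhpr and Hoga1 have no overlap between the groups, mice 308 and 319 are the 2 highest for Agxt, Grhpr, Ldha, Prodh2 and Slc26a1, and mouse 309 is the highest for Hao1. Mice 308 and 319 also have the 2 lowest TMM factors (0.830 and 0.886), and a lower factor gives a higher CPM.

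Of the enzymes that make glyoxylate, none passed the test. Hao1, the peroxisomal glycolate oxidase, lies at chr2:134497361-134554368 on the minus strand (ENSMUSG00000027261). It was at 126, 145, 136 and 176 CPM in the AAV8-GFP mice and at 209.6, 278, 146 and 185 CPM in the AAV8-AGXT mice. The highest value was in mouse 309, the mouse that was lowest of its group for Agxt, Grhpr and Ldha, and AAV8-AGXT mouse 316 lay below AAV8-GFP mouse 315. The log2 fold change was 0.49 (SE 0.19, 95% interval 0.06 to 0.92, edgeR adjusted p = 0.145), from means of 146 ± 21.6 and 205 ± 55.3 CPM (SD, n = 4 each).

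Prodh2 and Hoga1 act in turn in the mitochondrial breakdown of hydroxyproline, the amino acid set free when collagen is degraded. Prodh2, hydroxyproline dehydrogenase (ENSMUSG00000036892, chr7:30493622-30513402, plus strand), was at 187, 239, 187 and 306 CPM in the AAV8-GFP mice. It was at 424, 197, 255 and 328 CPM in the AAV8-AGXT mice, so that the groups overlapped widely. Its log2 fold change of 0.39 had a 95% interval of -0.16 to 0.94 (edgeR adjusted p = 0.341). Hoga1, the aldolase that releases glyoxylate (ENSMUSG00000025176, chr19:42045610-42070953, plus strand), was at 106, 97.8, 105 and 104 CPM in the AAV8-GFP mice and at 118, 108, 126 and 138 CPM in the AAV8-AGXT mice. The Hoga1 groups did not overlap (exact permutation p = 0.0286), but the difference was small. Its log2 fold change was 0.25 (SE 0.10, 95% interval 0.02 to 0.48), and it did not pass over all genes (edgeR adjusted p = 0.164). Scaled by total counts in place of TMM, its log2 fold change was 0.011 (edgeR adjusted p = 0.956). Hoga1 shares 43 exon bases with 4933411K16Rik on the same strand.

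Ldha encodes lactate dehydrogenase A, which interconverts pyruvate and lactate and oxidizes glyoxylate to oxalate. The gene (ENSMUSG00000063229) lies at chr7:46841475-46855627 on the plus strand and has processed pseudogenes, so pairs aligned equally well to these would be uncounted. It was at 1186, 1069, 1403 and 1168 CPM in AAV8-GFP mice 303, 311, 314 and 315 and at 2107, 1212, 1426 and 2731 CPM in AAV8-AGXT mice 308, 309, 316 and 319. Mice 308 and 319, with the lowest TMM factors (0.830 and 0.886), were again above the rest on this scale, whereas 309 lay within the AAV8-GFP range. The means of 1207 ± 141 and 1869 ± 689.8 CPM (SD, n = 4 each) gave a log2 fold change of 0.63 (SE 0.24, 95% interval 0.09 to 1.18, edgeR adjusted p = 0.141, exact permutation p = 0.0571).

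Agxt2 and Slc26a1 complete the set. Agxt2, a mitochondrial aminotransferase that uses glyoxylate as acceptor for amino groups of other substrates (ENSMUSG00000089678, chr15:10358532-10410153, plus strand, 155 exon bases shared with Gm21973), was at 213, 192, 227 and 204 CPM in the AAV8-GFP mice. It was at 238, 187, 232 and 207 CPM in the AAV8-AGXT mice. The ranges lay on top of each other, and the interval of the log2 fold change of 0.05, from -0.22 to 0.31 (edgeR adjusted p = 0.835), did not reach the estimates for Agxt and Grhpr. Slc26a1, an exchanger of sulfate, oxalate and bicarbonate on the blood side of hepatocytes (ENSMUSG00000046959, chr5:108669878-108675569, minus strand), was at 62.1, 76.5, 88.2 and 104 CPM in the AAV8-GFP mice. It was at 130.0, 96.3, 94.0 and 131 CPM in the AAV8-AGXT mice. Slc26a1 had a log2 fold change of 0.45 (SE 0.18, 95% interval 0.05 to 0.85, edgeR adjusted p = 0.152, exact permutation p = 0.114), and 309 and 316 lay below the highest AAV8-GFP mouse. Slc26a1 has 141 exon bases opposite exons of Idua, and reads of the pair cannot be told apart if the counting ignored strand.

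Of the 8 genes, 2 were therefore called higher in AAV8-AGXT and 0 lower (edgeR), where 2.45% of all 15248 tested genes were called higher and 1.90% lower. DESeq2 called the same number, 2 higher and 0 lower, and limma-voom 1 higher and 0 lower. At an unadjusted p under 0.05, 6 of the 8 were higher and 0 lower, beside 13.5% of all genes that were higher and 12.6% that were lower at this level. In 3 of the 8 every AAV8-AGXT mouse lay above every AAV8-GFP mouse in TMM-normalized CPM, which held for 8.93% of all genes. For Agxt this did not hold without the TMM factors. The median log2 fold change of the 8 was 0.47, against 0.02 over all tested genes. All 8 estimates were above 0 with TMM factors, where 7974 of all 15248 tested genes were above 0 and 7274 below. The estimate of Agxt2, however, was -0.02 with upper-quartile factors and -0.19 with total counts. Without composition factors the median of all tested genes fell to -0.22, and the split of all calls went from 374 higher and 290 lower to 144 higher and 857 lower. It was 254 higher and 298 lower with upper-quartile factors. Relative to the median of all genes under total counts, Agxt stood at 0.85, Grhpr at 0.75, Ldha at 0.59, Hao1 at 0.48 and Agxt2 at 0.03 on the log2 scale.

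**Figure D2:**
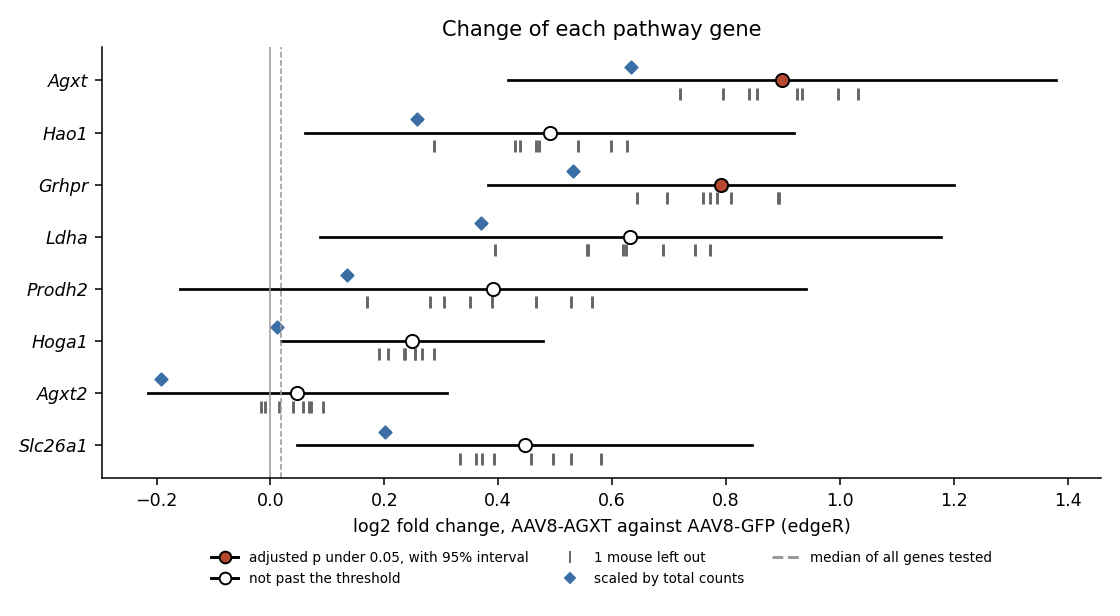
Log2 fold change of AAV8-AGXT against AAV8-GFP (x axis, edgeR) for each pathway gene, with 95% intervals (black lines), the estimate with each mouse left out (ticks below) and the estimate scaled by total counts (blue diamonds). Filled circles mark Agxt (0.90) and Grhpr (0.79), the 2 genes with an adjusted p under 0.05, and the dashed line is the median of all genes tested (0.02).

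Within the AAV8-AGXT group the genes fell into different orders. As a percentage of the AAV8-GFP mean, Agxt was at 247% in 308, 123% in 309, 148% in 316 and 227% in 319. Grhpr was at 219.7%, 127%, 138% and 208% in the same mice, close to Agxt in each. Ldha was at 175%, 100.5%, 118% and 226%, and so matched Agxt in 319 but stood lower in the other 3 mice. Hao1 ran otherwise, at 144%, 191%, 100.3% and 127%, with its peak in 309.

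**Figure D3:**
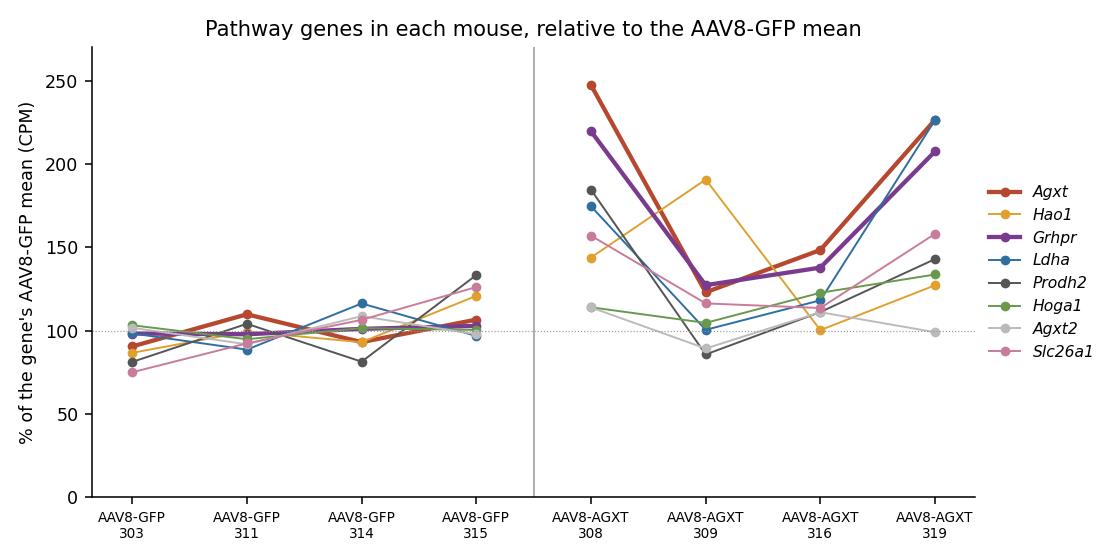
Level of each pathway gene as a percentage of its AAV8-GFP mean (y axis) in each mouse (x axis), where lines only join the points of a gene within a group. Agxt and Grhpr (thick lines) reach 247% and 219.7% in mouse 308, whereas Hao1 peaks in 309 at 191% and Agxt2 stays between 89.3% and 114%.

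The likeness of profiles was measured by the root-mean-square distance of centred log2 CPM over the 8 mice. The candidates were 8667 tested genes with a mean of at least 10 CPM. The 8 pathway genes were left out of the candidates, so the distances between them were not measured. Because the distance spans both groups, genes with a similar difference between the groups score well, and the points share libraries and depth. Ahcy, S-adenosylhomocysteine hydrolase, was the nearest gene to Grhpr (distance 0.07, against a spread of Grhpr itself of 0.45) and, after Slc25a48 (0.10), the next nearest to Agxt (0.11, spread 0.52). The next gene to Grhpr was 1810055G02Rik (0.09). Ahcy had a log2 fold change of 0.87 (edgeR adjusted p = 0.0363). Ldha was nearest to Prox1 (0.10) and Fetub (0.13), with a spread of 0.44. Hao1 was nearest to 9030622O22Rik (0.09) and Usp33 (0.12), with a spread of 0.35. Prodh2 was nearest to Pycrl (0.10) and Nlrp6 (0.11), Slc26a1 to Ddi2 and Afm (0.09 each), Hoga1 to Tbc1d22a (0.03) and Tmem97 (0.04), and Agxt2 to Pxn and Fopnl (0.06 each).

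To compare levels between genes, CPM was divided by the exon length in kb. Ldha was by far the most abundant of the 8 in AAV8-GFP livers, at 365 ± 42.5 CPM per kb (SD, n = 4), followed by Grhpr at 126 ± 2.99, Agxt at 96.5 ± 9.28 and Prodh2 at 93.4 ± 23.1. Agxt2 (66.0 ± 4.67) and Hao1 (63.8 ± 9.47) came next, then Hoga1 (45.6 ± 1.65) and Slc26a1 (20.4 ± 4.43). The ranges of Agxt and Prodh2 overlapped in this order, as did those of Agxt2 and Hao1, and all other neighbours were apart. Among 15237 tested genes with an exon length, Ldha ranked 121st, Agxt 514th and Slc26a1 2064th. In AAV8-AGXT livers Hao1 (89.6 ± 24.2 CPM per kb) stood above Agxt2 (68.2 ± 7.50) and the order was otherwise the same, but only Ldha (565 ± 208) and Hoga1 (54.2 ± 5.65) were apart from the gene below them.

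**Figure D4:**
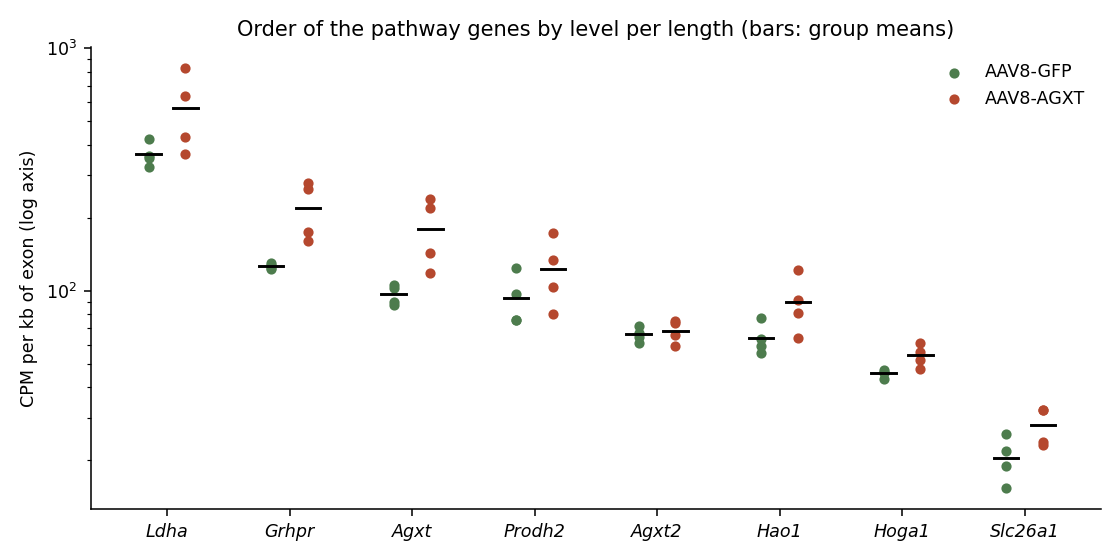
CPM per kb of exon (y axis, log scale) of the 8 pathway genes in order of their AAV8-GFP mean, with each mouse as a point and group means as bars. Ldha is highest (365 in AAV8-GFP and 565 in AAV8-AGXT) and Slc26a1 lowest (20.4 and 27.9), and Agxt2 shows the least separation of the groups.

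The counted transcripts of opposing steps were compared by ratios per length, with no test. Human AGXT has no row, so Agxt in the AAV8-AGXT mice leaves out transgene pairs that did not align to the mouse gene. The ratio of Agxt to Ldha, the glycine-forming over the oxalate-forming enzyme, was 0.269 ± 0.0513 in AAV8-GFP and 0.324 ± 0.0453 in AAV8-AGXT livers (SD, n = 4 each), and the ranges of 0.212 to 0.328 and 0.265 to 0.375 overlapped. The ratio of Hao1 to Grhpr, the glycolate oxidase over the reductase, was 0.505 ± 0.0660 in AAV8-GFP and 0.442 ± 0.212 in AAV8-AGXT livers. In 3 of the 4 AAV8-AGXT mice it lay between 0.310 and 0.368, below every AAV8-GFP mouse (lowest 0.446), whereas in mouse 309 it was 0.758, above all others. Ldha exceeded Ldhb, the heart-type subunit, by 125 ± 54.9 times in AAV8-GFP and 286 ± 206 times in AAV8-AGXT livers, on the 47 to 199 read pairs that Ldhb had per mouse. These ranges overlapped as well.

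The hepatocyte marker genes were also higher in the AAV8-AGXT livers in TMM-normalized CPM. Their sum over 6 genes, Alb, Apoa1, Ttr, Apob, Apoh and Ambp, ranged from 47032 to 56521 CPM in AAV8-GFP mice. It ranged from 56753 to 79223 CPM in AAV8-AGXT mice, narrowly without overlap. Of the 6 genes, 0 passed the edgeR test singly, and their median log2 fold change was 0.35. The TMM factors were higher in every AAV8-GFP mouse (1.02 to 1.14) than in every AAV8-AGXT mouse (0.830 to 1.00). Without these factors the ranges of the sum overlap. The sum of 7 stellate cell and fibroblast markers ranged from 316.4 to 598 CPM in AAV8-GFP and from 112 to 315.9 CPM in AAV8-AGXT mice, with 1 of 7 called, Acta2, which was lower. Col1a1 (means of 143 and 41.7 CPM) and Col3a1 (191 and 73.7 CPM) made up most of this sum. Des, Pdgfrb, Col1a1, Col3a1 and Acta2 had log2 fold changes below 0, whereas Lrat (0.11) and Reln (0.22) lay above 0. Summed cholangiocyte markers were at 50.4 ± 19 and 22.5 ± 9.23 CPM, macrophage markers at 584 ± 134 and 469.9 ± 226 CPM, and T cell markers at 9.03 ± 2.18 and 4.67 ± 1.32 CPM (SD, n = 4 each). Erythroid markers were at 104 ± 25.7 and 172 ± 79.5 CPM, endothelial markers at 154 ± 26.3 and 184 ± 44.2 CPM, and B cell markers at 6.77 ± 2.34 and 5.23 ± 1.25 CPM, and no gene of these lists passed the edgeR test. The macrophage genes did not move together. Marco had means of 3.71 and 46.2 CPM without overlap (edgeR adjusted p = 0.0801), but its AAV8-AGXT values were very uneven (SD 73.4 CPM). It ranged from 0.554 to 5.65 CPM in AAV8-GFP and from 5.94 to 156 CPM in AAV8-AGXT mice. Cd14 had means of 26 and 12.3 CPM (adjusted p = 0.0610), with ranges of 19.2 to 31.2 and 6.28 to 18.9 CPM. Kidney tubule and acinar pancreas markers were at or near 0. In bulk liver, fewer cells of a type and less RNA per cell cannot be told apart, and the part of these differences in the pathway genes was not tested. On a scale chosen after the data were seen, per 1000 read pairs of the 6 hepatocyte markers, Agxt was at 3.15 ± 0.472 in AAV8-GFP and 4.50 ± 0.959 in AAV8-AGXT mice (SD, n = 4 each). Grhpr was at 3.88 ± 0.266 and 5.18 ± 0.842 on that scale, Ldha at 23.1 ± 1.87 and 27.7 ± 8.45, and Agxt2 at 4.01 ± 0.277 and 3.27 ± 0.545. On it the groups overlapped for all 8 genes, and the ratio of the group means was 1.43 for Agxt, 1.34 for Grhpr and 0.817 for Agxt2. This scale rests mainly on Alb. Of the 6-marker sum, Alb made up 29998 of 52329 CPM in AAV8-GFP and 37995 of 66811 CPM in AAV8-AGXT mice (means).

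Several genes next to glyoxylate in glycine and proline metabolism rose in AAV8-AGXT livers. Of 12 tested genes that make or use glycine, sarcosine or serine, 4 rose and 0 fell, with a median log2 fold change of 0.30. DESeq2 called 5 higher and 0 lower, and 0 were lower at an unadjusted p under 0.05. Gnmt, glycine N-methyltransferase, went from 397 ± 56.3 to 987 ± 273 CPM (mean ± SD of 4 mice, 1.32 on the log2 scale, edgeR adjusted p = 0.0276). Sardh, which returns sarcosine to glycine, rose by 0.77 on the log2 scale (adjusted p = 0.0344), Shmt1, the cytosolic serine hydroxymethyltransferase, by 0.59 (adjusted p = 0.0413) and Gcsh of the glycine cleavage system by 0.40 (adjusted p = 0.0495). The other glycine cleavage genes did not pass, with log2 fold changes of 0.07 for Gldc, 0.02 for Amt and 0.20 for Dld.

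Among 9 genes of proline and hydroxyproline use, 3 rose and 0 fell (edgeR, with the same numbers by DESeq2 and limma-voom and 0 lower at an unadjusted p under 0.05), with a median of 0.34. Oat, ornithine aminotransferase, went from 803 ± 185 to 2246 ± 535 CPM (log2 fold change 1.48, adjusted p = 0.0246). Got1, the cytosolic aspartate aminotransferase, rose by 1.13 (adjusted p = 0.0374) and Prodh, which opens proline breakdown as Prodh2 does that of hydroxyproline, by 0.83 (adjusted p = 0.0413).

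Beside Ldha, the related genes gave a mixed picture. Of 7 tested genes of lactate and hydroxyacid handling 0 were called by edgeR or limma-voom, 3 were higher and 1 lower at an unadjusted p under 0.05, and DESeq2 called 2 higher and 1 lower. Slc16a3, a lactate exporter, was at 3.67 ± 0.524 and 2.02 ± 0.525 CPM (log2 fold change -0.85, edgeR adjusted p = 0.0703), and Ldhd, the mitochondrial D-lactate dehydrogenase, at 127 ± 16.5 and 197 ± 51.1 CPM (0.63, adjusted p = 0.0724). Of 13 genes of glycolysis and HIF-1 response 1 rose, Bnip3 (0.63, adjusted p = 0.0388), and 0 fell by edgeR, against 3 higher and 2 lower by DESeq2. At an unadjusted p under 0.05, 4 of the 13 were higher and 2 lower. Their median was -0.04, with Pgk1 at 0.64 (adjusted p = 0.0677) and Pkm at -0.79 (adjusted p = 0.0699), and 6 of the 13 estimates were above 0 and 7 below.

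The remaining lists of the pathway's surroundings held no call by edgeR or limma-voom. Of 4 other SLC26 exchangers tested 0 were called by any of the 3 tools and 0 had an unadjusted p under 0.05, with a median of -0.12. Those with the smallest p were Slc26a6 (-0.35, edgeR adjusted p = 0.223) and Slc26a10 (-0.22, adjusted p = 0.516). Of 4 genes of pyridoxal phosphate supply, the cofactor of the aminotransferases, 0 were called by any tool and 1 was higher at an unadjusted p under 0.05, Pdxk (0.74, edgeR adjusted p = 0.112), followed by Alpl (-0.33, adjusted p = 0.216). For 7 genes of glyoxal removal the number higher at an unadjusted p under 0.05 was 3 and DESeq2 called 1, with a median of 0.26, and Hagh (0.54) and Glod4 (0.26) had the smallest p (edgeR adjusted p = 0.107 and 0.122). For 6 genes of ascorbate, an oxalate precursor, these numbers were 4 and 3 with a median of 0.31, and Slc23a1 (0.57) and Gsto1 (0.49) had the smallest p (edgeR adjusted p = 0.0703 and 0.0717). For 8 genes of peroxisomal import and matrix they were 3 and 2 with a median of 0.23, and Pex5, the import receptor, was at 0.39 and Cat, catalase, at 0.44 (edgeR adjusted p = 0.0996 and 0.119).

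Some genes of the hepatocyte programme and its zones also rose. Of 8 hepatocyte transcription factors 1 rose, Cebpa (log2 fold change 0.50, edgeR adjusted p = 0.0429), and the median was 0.47, with Hnf4a at 0.46 and Nr5a2 at 0.48 (adjusted p = 0.0765 and 0.0795). Periportal and pericentral genes mark opposite ends of the liver lobule. Of 9 periportal genes 2 rose, Cps1 (0.96, adjusted p = 0.0279) and Arg1 (0.62, adjusted p = 0.0490), both of the urea cycle, with a median of 0.55, and Hal (0.75) and Pck1 (0.55) came next (adjusted p = 0.126 and 0.145). Of 9 pericentral genes 4 rose, Cyp2e1 (1.15, adjusted p = 0.0198), Slc1a2 (1.37, adjusted p = 0.0246), Lhpp (0.99, adjusted p = 0.0461) and Oat, with a median of 0.99. In these 3 lists 0 genes fell by edgeR, DESeq2 or limma-voom, and 0 were lower at an unadjusted p under 0.05.

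**Figure D5:**
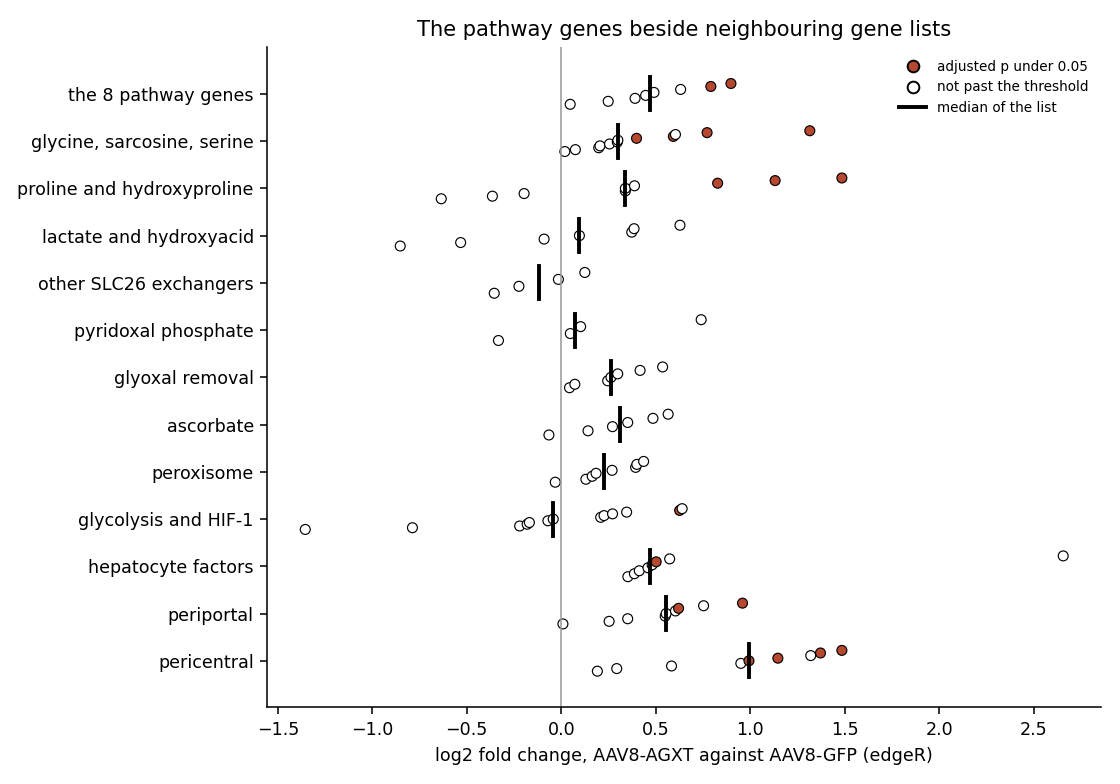
Log2 fold change of AAV8-AGXT against AAV8-GFP (x axis, edgeR) for the 8 pathway genes (top row) and for each tested gene of the neighbouring lists (other rows), with filled circles for an adjusted p under 0.05 and black bars for list medians. The 8 pathway genes have a median of 0.47, the pericentral genes of 0.99 and the genes of glycolysis and HIF-1 response of -0.04.

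In all 12 lists 14 of 94 different genes rose and 0 fell by edgeR (30 and 3 by DESeq2, 14 and 0 by limma-voom), where 2.45% and 1.90% of all genes did, and at an unadjusted p under 0.05, 45 of the 94 were higher and 3 lower, beside 13.5% and 12.6% of all genes. Every AAV8-AGXT mouse was above every AAV8-GFP mouse for 27 of the 94, beside 8.93% of all genes, and below for 5, beside 7.63%. With total counts 6 of the 94 were called higher and 5 lower. The estimates of the 14 were above 0 under every alternative run. Their calls held in between 0 (Gcsh) and 5 (Gnmt, Oat, Cyp2e1 and Slc1a2) of the 8 fits that left out 1 mouse. Of the 94 genes, 0 were called without 311, 314 or 319, 4 without 303, 7 without 308 (1 of them lower), 9 without 316 (1 of them lower), 11 without 315 and 12 without 309. Over all tested genes, too, 2 were called without 311, 14 without 319 and 15 without 314, against 664 with every mouse.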

How the data were processed

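Livers of 8 mice were profiled by RNA-seq, 4 per group by the treatment in the sample labels, with 1 library per mouse. According to the labels and the study's methods, the authors prepared libraries with a stranded mRNA kit, ran FastQC 0.11.8 and Trimmomatic 0.35, aligned the trimmed pairs to GRCm38 in HISAT2 2.1.0.13 and counted them with HTSeq. The deposited values are raw counts of read pairs per Ensembl gene, neither normalized nor filtered, and the strand option and overlap mode of the counting are not given in the sources used here. HTSeq's 5 tallies of pairs on no gene were kept out of library sizes and tests. Of the 52636 genes, 52489 were matched to GENCODE M21 on the same build, which gave positions, exon lengths and overlaps.

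Differential expression was tested in R 4.3.3 with edgeR 4.0.16 (filterByExpr, TMM, quasi-likelihood test, treatment as the only term, Benjamini-Hochberg adjustment over 15248 genes, threshold 0.05), where the study used DESeq2. Log2 fold changes carry edgeR's prior count of 0.125, and the log2 CPM of profiles a prior count of 2. The common biological coefficient of variation was 23.3%. Single values were compared by two-sided exact permutation over the 70 arrangements. The alternatives were DESeq2 1.42.0, limma-voom (limma 3.58.1), other scalings and low-count filters (none, or at least 10 counts in every mouse), robust estimation, Agxt left out of the scaling, and each mouse left out in turn. The edgeR fit was checked on simulated counts. The 8 genes, the lists and the tests were chosen with earlier results of these data known. All 8 genes were named, in each list the genes that passed or, where fewer than 3 did, also the 2 others with the smallest p, Ldhb, and for each gene the 2 nearest profiles. Gldc, Amt, Dld and the markers were named after their values were seen. Of 105 symbols in the 12 lists, 94 were tested, and the others had too few counts or no single matching row.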

Additional observations from a re-analysis of the deposited data

Results flagged for a closer look

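The per-length ratio of Hao1 to Grhpr in AAV8-AGXT mouse 309 was 0.758, far from the 0.310 to 0.368 of the other 3 mice of its group. The gap to the nearest of them made up 0.870 of the range of the group, above Dixon's 95% limit for 4 samples. Among 24 groups of 4 values examined in this way it was the only 1 so marked, and chance marks about 1 in 20. Both sides of the ratio contributed: mouse 309 had the highest Hao1 level of all 8 mice, 278 CPM, and the lowest Grhpr level of its group, 257 CPM. Its part in the result for Hao1 can be read from the fit without it, in which the log2 fold change of Hao1 was 0.29 in place of 0.49.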

How the results depend on the processing

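The log2 fold changes of Agxt, Grhpr, Hao1, Hoga1, Prodh2, Ldha and Slc26a1 stayed above 0 under all 17 alternatives, though that of Hoga1 only barely. With total counts they were 0.011 for Hoga1, 0.13 for Prodh2, 0.20 for Slc26a1, 0.26 for Hao1 and 0.37 for Ldha. That of Agxt2 went below 0 with upper-quartile factors (-0.018), with total counts (-0.19) and without 308 (-0.016) or 311, and spanned -0.016 to 0.092 with 1 mouse left out. Agxt did not pass with limma-voom (0.85), DESeq2's size factors (0.88), upper-quartile factors (0.83), total counts (0.63) or at least 10 counts in every mouse (0.85), with adjusted p of 0.0502 to 0.0566. Grhpr did not pass with upper-quartile factors (0.72) or total counts (0.53). With 1 mouse left out, Agxt ranged from 0.72 to 1.03 and Grhpr from 0.64 to 0.89. DESeq2 gave them adjusted p of 0.00227 and 0.00151. Of the 8 genes, 2 were called by default, 1 with limma-voom, with DESeq2's size factors and with the stricter filter, 0 with upper-quartile factors and with total counts, and 0 to 2 with 1 mouse left out. Over all genes DESeq2 called 2078 and total counts 1001, against 664, and 2 to 643 were called with 1 mouse left out. Of the list genes DESeq2 called 33, against 14, and 0 to 12 were called with 1 mouse left out. The difference in unaligned pairs was 2.65 points without pairs aligned at several places and 1.53 to 2.39 points with 1 mouse left out. The cause of these changes was not tested, beyond the shift that total counts give to all genes. No paired analysis was possible because the groups share no animal number.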
